A study of Homo sapiens with 6 samples.

Results

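The transcripts described here are those of 32 genes that bring pyruvate into the mitochondrion and carry its carbon around the tricarboxylic acid (TCA) cycle. They were picked by gene name out of the 57316 gene names in the count tables, and the rule that picks them uses no measured value, although earlier results of these data were known when the list was drawn up. The list holds the pyruvate carrier, the pyruvate dehydrogenase complex with its kinases and phosphatases, pyruvate carboxylase, most cycle enzymes, the enzymes of glutamate and aspartate exchange, and ACOD1, the enzyme that makes itaconate. Their RNA was measured in THP-1, a leukaemic monocyte line of human origin that the phorbol ester PMA drives towards a macrophage-like state. Both groups were first exposed to 100 ng/ml PMA during 48 h. The treated group was then given recombinant human CXCL10, an interferon-inducible chemokine, at 100 ng/ml for 24 h, and the control group the control solution for the same time. Each group had 3 libraries, numbered 1, 3 and 4 in the labels. The model is a single leukaemia cell line, and the labels do not say whether the libraries came from separate cultures, and the p-values therefore reflect the spread of these samples alone, part or all of which may be technical.

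The cycle oxidises acetyl groups to carbon dioxide and passes the electrons to the respiratory chain. Pyruvate enters the mitochondrion through a carrier made of MPC1 and MPC2 and is turned into acetyl-CoA by the pyruvate dehydrogenase complex, which kinases (PDK) switch off and phosphatases (PDP) switch on again. In macrophages the cycle is also a source of signalling metabolites. Citrate can leave for fatty acid synthesis, succinate and fumarate act on gene regulation, and itaconate is drawn from the cycle by ACOD1 in cells stimulated with bacterial products.

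The libraries held 34.8 to 41.0 M reads, with both mates of each pair counted. Markers of macrophages and other myeloid cells were present at 1 CPM (counts-per-million) or more in every library for 13 of 15 genes, with a summed level of 3991 to 4346 CPM in control and 4180 to 4204 CPM in CXCL10 libraries. The summed T and NK cell markers lay between 4.51 and 5.22 CPM and B cell markers between 2.28 and 2.85 CPM. Summed fibroblast markers lay between 2.83 and 4.61 CPM, endothelial markers between 0.972 and 3.50 CPM, and epithelial and erythroid markers at 0.103 CPM or less. The defining markers CD2, MS4A1, EPCAM, KRT5 and HBA1 had 0 reads in all 6 libraries. Control library 4 stood apart: ribosomal protein genes took 12.8% of its reads against 7.67% to 9.85% in the other 5, and its slope of log2 level on log2 exon length was the lowest, 0.737 against 0.794 to 0.931.

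No TCA cycle or pyruvate entry gene passed the test between CXCL10 and control. Of the 32 genes, 31 had enough reads to be tested, ACOD1 being the exception, and 0 of the 31 had an adjusted p under 0.05 by edgeR's quasi-likelihood test, where the share called over all 16531 genes tested was 0%. At an unadjusted p under 0.05 there was 1 of the 31 genes (3.23%), IDH3A, against 7.14% of all genes. That gene lay on the higher side, where the share over all genes was 2.5%, and 0 of the 31 lay on the lower side, where it was 4.65%. The CXCL10 and control libraries did not overlap for 4 of the 31 (12.9%), which is close to the 12.2% of all genes. They were IDH3A with CXCL10 above control (5.76% of all genes) and FH, MDH1 and PDHA1 with CXCL10 below control (6.48% of all genes).

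The estimates were small and lay on both sides of 0. The log2 fold changes of CXCL10 over control ran from -0.30 (MPC2) to 0.81 (IDH3A), with 18 below 0 and 13 above. Their median was -0.04, beside 0.02 over all genes tested, and 58.1% of them lay below 0 beside 46% of all genes. The direction of the group as a whole depended on the scaling. Scaled by library size alone, 9 of the 31 lay below 0 and their median was 0.05, beside 0.10 for all genes.

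The precision was enough to bound most of these genes. The 95% interval of the fold change lay within 2-fold in either direction for 30 of 31 genes (96.8%), the exception being IDH3A, beside 74.4% of all genes. It lay within 1.5-fold for 26 of 31 (83.9%), the exceptions being IDH3A, DLST, PDK2, PDK4 and MPC2, beside 46.5% of all genes. The median level of the members was 48 CPM against 12 CPM over all genes, and their median standard error on the log2 scale 0.141 against 0.188. RNA from a whole culture cannot tell fewer cells with a transcript from less of that transcript per cell.

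**Figure D1:**
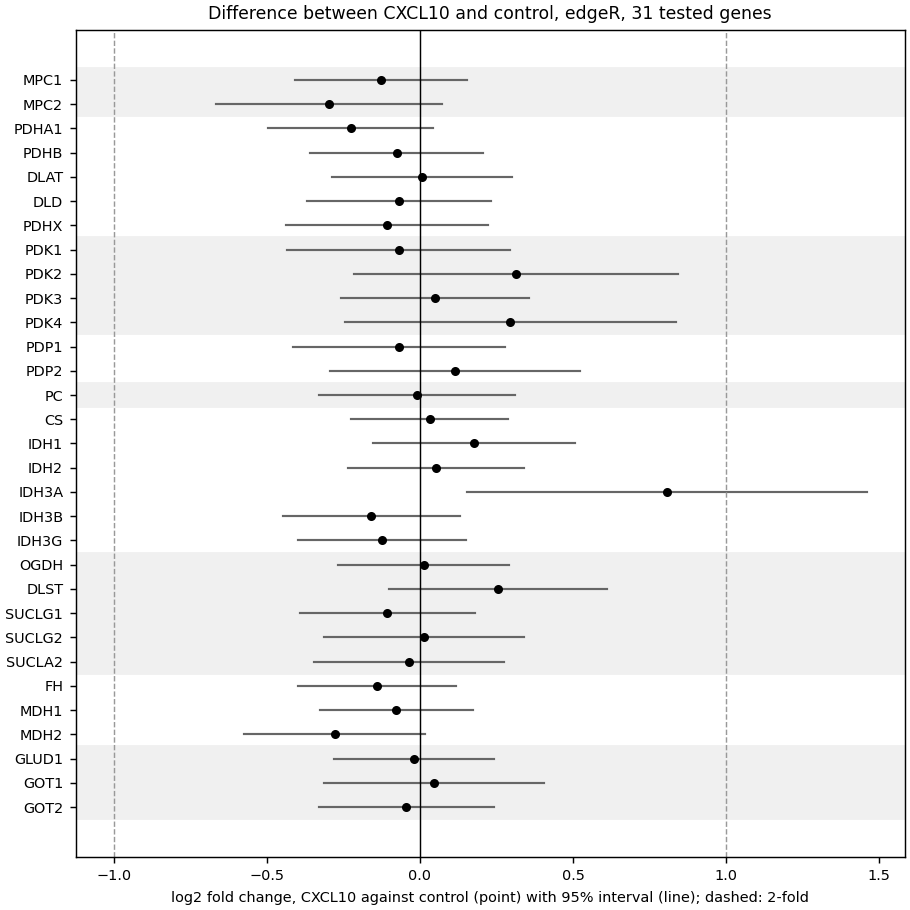
Log2 fold change of CXCL10 over control for the 31 tested genes, grouped by role, with the 95% interval of edgeR's fit as horizontal lines, a solid line at 0 and dashed lines at 2-fold. The intervals of 30 genes include 0, and that of IDH3A runs from 0.15 to 1.46.

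Per unit of exon length, the most abundant member was IDH2, the mitochondrial NADP-dependent isocitrate dehydrogenase, at a mean of 305 TPM (transcripts-per-million) over the 6 libraries. MPC1 followed at 205 TPM, then MDH2 at 194, MDH1 at 164 and FH at 140.3 TPM. GLUD1, at 113 TPM, and IDH3G, at 97.3 TPM, came next. At the low end were IDH3A at 3.44 TPM, PDK4 at 2.27, PDK1 at 2.07 and ACOD1 at 0.119 TPM. Opposite-strand exons share 38.9% of the exon length of IDH3A, and reads over several genes were left out, so its level may be under-counted. IDH2 was the highest in each library, between 239 and 357 TPM. MPC1, between 194 and 220 TPM, overlapped with MDH2, between 174 and 213 TPM, so these neighbours in the order were not separated by more than their spread. The levels of IDH3A also overlapped with those of PDK4 and PDK1.

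**Figure D2:**
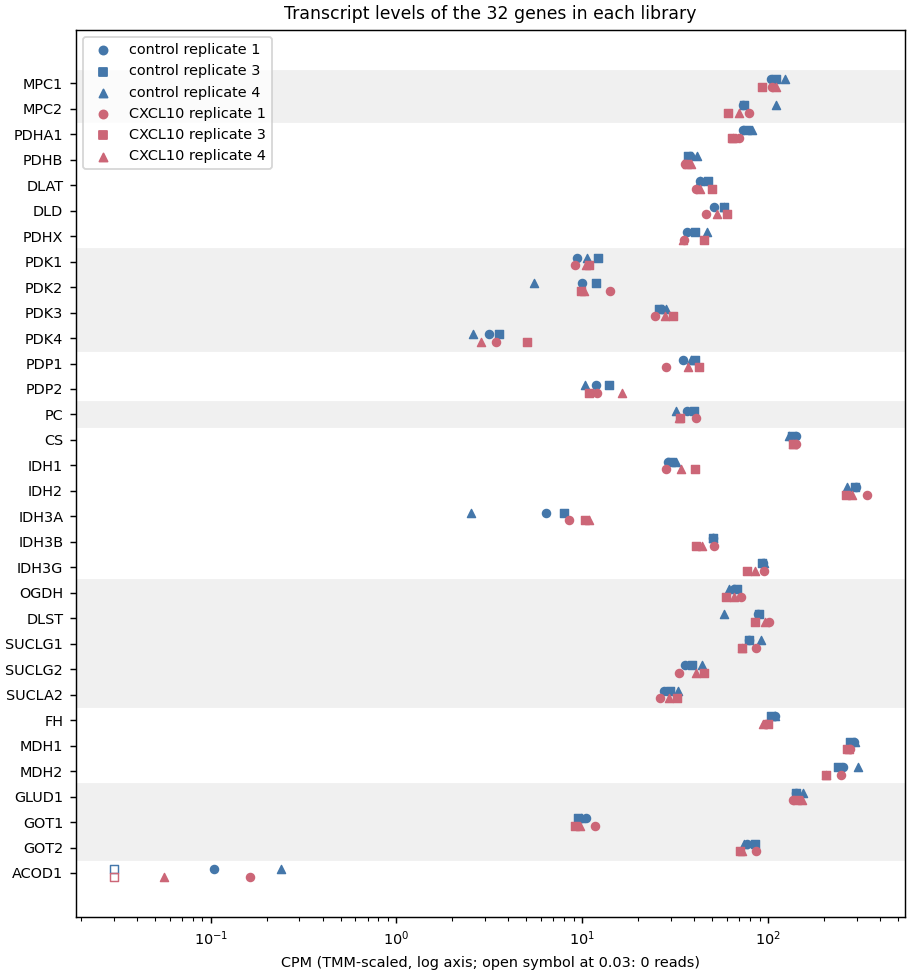
Level of each of the 32 genes in CPM on a log axis, grouped by role from the pyruvate carrier at the top to ACOD1, with 1 symbol per library, the 2 groups in different colours and open symbols at the left for the libraries with 0 reads of ACOD1. Within most genes the 6 libraries lie close together compared with the distance between genes, and control library 4 lies apart for IDH3A, PDK2, DLST and MPC2.

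Both pyruvate carrier genes had estimates below 0, although that of MPC1 became 0.04 with the length trend removed. MPC2 (chr1:167916675-167937072, minus strand, hg38) was at 72.9, 73.9 and 111 CPM in control libraries 1, 3 and 4 and at 78.9, 61.1 and 69.5 CPM in the CXCL10 libraries of the same numbers. Control library 4 was the high one, and the other 5 libraries overlapped. The log2 fold change was -0.30 ± 0.17 (SE, adjusted p = 0.732), and it was -0.07 without control library 4. Opposite-strand exons of DCAF6 cover 21.8% of the exon length of MPC2, and strand was not used in counting. MPC1, its partner in the carrier, gave -0.13 ± 0.13, with control library 4 highest at 123 CPM and CXCL10 library 3 lowest at 92.9 CPM.

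Within the pyruvate dehydrogenase complex, 4 of 5 estimates were below 0 and the median was -0.08, but scaled by library size alone PDHB and DLD also lay above 0. PDHA1 (chrX:19343893-19361705, plus strand) encodes the catalytic E1 alpha subunit whose phosphorylation by the kinases turns the complex off. Its levels were 73.5, 77.2 and 82.0 CPM in control and 70.2, 64.1 and 64.8 CPM in CXCL10 libraries. Every control library lay above every CXCL10 library, although by only a few CPM between the nearest ones, and the log2 fold change was -0.23 ± 0.13 (adjusted p = 0.716). It was -0.18 without control library 4. The groups of PDHA1 also stayed apart when scaled by library size alone, but overlapped in TPM. Opposite-strand exons of MAP3K15 share 21.3% of the exon length of PDHA1, so its level may be under-counted.

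The other subunits had estimates nearer to 0. PDHB, the E1 beta subunit, had a log2 fold change of -0.08 ± 0.13, and DLD, the dihydrolipoamide dehydrogenase shared with the oxoglutarate complex, -0.07 ± 0.14. PDHX, which holds DLD in the complex, gave -0.11 ± 0.15. DLAT, the acetyltransferase core, had means of 44.6 ± 2.78 CPM in control and 44.8 ± 4.79 CPM in CXCL10 libraries (SD, n = 3), and its log2 fold change of 0.01 ± 0.14 changed sign with the scaling.

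Among the kinases, 3 of 4 estimates were above 0 and the median was 0.17, with PDK1 also above 0 when scaled by library size alone and PDK3 at -0.08 with the length trend removed. PDK2 was at 9.96, 11.9 and 5.53 CPM in control and at 14.0, 9.88 and 10.2 CPM in CXCL10 libraries. Control library 4 was the low one and the remaining libraries overlapped. The log2 fold change was 0.31 ± 0.25 (adjusted p = 0.796). It was 0.06 without control library 4, 0.13 without CXCL10 library 1 and 0.56 without control library 3. SAMD14, on the opposite strand, shares 38.6% of the exon length of PDK2 and was itself lowest in control library 4, with 61 reads against 87 to 125 in the others.

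PDK4, the isoform known to respond to fasting and fatty acids, was at 3.16, 3.55 and 2.57 CPM in control and at 3.45, 5.06 and 2.86 CPM in CXCL10 libraries. CXCL10 library 3 was the high one, and the groups overlapped. Its log2 fold change was 0.30 ± 0.25 (adjusted p = 0.808), and it was 0.04 without CXCL10 library 3, 0.19 without control library 4 and 0.46 without CXCL10 library 4. PDK1, a target of the hypoxia-inducible factor, gave -0.07 ± 0.17, and PDK3 gave 0.05 ± 0.14. The phosphatase genes gave -0.07 ± 0.16 for PDP1 and 0.11 ± 0.19 for PDP2. Pyruvate carboxylase (PC), which refills the cycle by making oxaloacetate, was at 36.2 ± 4.09 CPM in control and 35.9 ± 4.59 CPM in CXCL10 libraries, a log2 fold change of -0.01 ± 0.15.

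From citrate synthase to oxoglutarate, the widest difference was that of IDH3A, the catalytic subunit of the NAD-dependent isocitrate dehydrogenase (chr15:78131498-78171945, plus strand). It was at 6.39, 7.99 and 2.51 CPM in control libraries 1, 3 and 4 and at 8.44, 10.3 and 10.9 CPM in the CXCL10 libraries. All CXCL10 libraries lay above all controls, with 8.44 CPM in CXCL10 library 1 close to 7.99 CPM in control library 3, and control library 4 was far below the others. The log2 fold change was 0.81 ± 0.30 (95% interval 0.15 to 1.46, adjusted p = 0.683). The groups were also apart when scaled by library size alone and in TPM.

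The size of the IDH3A estimate rested on control library 4. Without that library it was 0.46, and over the 6 fits that each left out 1 library it ran from 0.46 to 1.16. The adjusted p ran from 0.0308 to 0.9997 over all alternatives. The lowest came from the fit with no filter on low counts, the only alternative in which a member passed the test. Opposite-strand exons of ACSBG1 and CIB2 share 38.9% of the exon length of IDH3A, and those genes had 0 to 3 and 4 to 25 reads per library. Reads over several genes were left out, so these counts do not show how many IDH3A reads were lost there.

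The partner subunits of IDH3A had estimates on the other side of 0. IDH3B, a regulatory subunit, was at 50.7, 50.8 and 50.6 CPM in control and at 51.1, 41.1 and 44.0 CPM in CXCL10 libraries. The 3 controls were almost equal, CXCL10 library 1 was level with them and the other CXCL10 libraries were lower. The log2 fold change was -0.16 ± 0.13 for IDH3B (adjusted p = 0.807) and -0.12 ± 0.13 for IDH3G, the other regulatory subunit (adjusted p = 0.85). Without CXCL10 library 3 these estimates were -0.08 and -0.04, and without CXCL10 library 1 they were -0.25 and -0.20. Subunits of the same enzyme thus had estimates of opposite sign, and the difference between them was not tested. Opposite-strand exons of SSR4, a gene with 11811 to 22095 reads per library, share 10.2% of the exon length of IDH3G.

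IDH1, the cytosolic NADP-dependent enzyme, was at 29.0, 30.0 and 31.9 CPM in control and at 28.4, 40.3 and 34.1 CPM in CXCL10 libraries, with CXCL10 library 3 highest and library 1 lowest. Its log2 fold change was 0.18 ± 0.15 (adjusted p = 0.811), and it was 0.05 without CXCL10 library 3 and 0.29 without CXCL10 library 1. IDH2 was at 296, 295 and 265 CPM in control and at 341, 262 and 285 CPM in CXCL10 libraries. The highest and the lowest value of IDH2 both came from the CXCL10 group, and the log2 fold change was 0.05 ± 0.13. CS, citrate synthase, gave 0.03 ± 0.12, with 135 ± 5.73 CPM in control and 138 ± 2.83 CPM in CXCL10 libraries.

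On the steps from oxoglutarate to succinate, DLST, the succinyltransferase core of the oxoglutarate dehydrogenase complex (chr14:74881891-74903743, plus strand), was at 88.3, 90.0 and 58.0 CPM in control and at 101, 85.1 and 95.9 CPM in CXCL10 libraries. Control library 4 was again the low one, and control libraries 1 and 3 lay within the CXCL10 range. The log2 fold change was 0.25 ± 0.17 (adjusted p = 0.761) and 0.08 without control library 4. OGDH, the oxoglutarate dehydrogenase itself, gave 0.01 ± 0.13. The succinyl-CoA ligase genes gave -0.11 ± 0.13 for the shared alpha subunit SUCLG1, 0.01 ± 0.15 for the GTP-forming beta subunit SUCLG2 and -0.04 ± 0.15 for the ATP-forming beta subunit SUCLA2.

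All 3 genes from fumarate to oxaloacetate had estimates below 0, with a median of -0.14, while MDH1 lay at 0.0025 when scaled by library size alone. FH, fumarate hydratase (chr1:241497603-241519761, minus strand), was at 109, 103 and 109.6 CPM in control and at 98.0, 99.7 and 93.8 CPM in CXCL10 libraries. The groups did not overlap, and the log2 fold change was -0.14 ± 0.12 (adjusted p = 0.808) and -0.12 without control library 4. It shrank to -0.06 when scaled by library size alone and to -0.03 with the length trend removed. MDH1, the cytosolic malate dehydrogenase, was at 289, 275 and 293 CPM in control and at 275.4, 265 and 272 CPM in CXCL10 libraries. The nearest values of MDH1, 275.484 in control library 3 and 275.357 in CXCL10 library 1, were almost the same, and the log2 fold change was -0.08 ± 0.12.

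The separation of FH and MDH1 depended on the scale of the levels. Their groups overlapped both when scaled by library size alone and in TPM. In TPM, 4 members had all CXCL10 libraries above all controls (CS, IDH2, IDH3A and DLST) and 0 the reverse. In CPM scaled by library size alone there was 1 in each direction, IDH3A above and PDHA1 below. The share over all genes was not computed on these scales, so the counts are not a result about the members. IDH3A was the member without overlap on all 3 scales.

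MDH2, the mitochondrial malate dehydrogenase (chr7:76048051-76067508, plus strand), was at 253, 238 and 305 CPM in control and at 246, 205 and 206 CPM in CXCL10 libraries. Control library 4 was the highest, CXCL10 library 1 lay between the other controls, and CXCL10 libraries 3 and 4 lay below all controls. The log2 fold change was -0.28 ± 0.14 (adjusted p = 0.702), and -0.16 without control library 4.

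The enzymes that exchange carbon with glutamate and aspartate had estimates close to 0. GLUD1, glutamate dehydrogenase, was at 146 ± 6.45 CPM in control and 144 ± 8.11 CPM in CXCL10 libraries, a log2 fold change of -0.02 ± 0.12. Opposite-strand exons of SHLD2 share 12.3% of its exon length. The aspartate aminotransferases gave 0.05 ± 0.17 for the cytosolic GOT1 and -0.04 ± 0.13 for the mitochondrial GOT2. The pseudogene GLUD1P3 held 824 reads over the 6 libraries beside 32664 for GLUD1, and the other named pseudogenes of members held at most 40 reads each. Reads that mapped to several places had been left out, so genes with close copies may be under-counted.

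ACOD1, the itaconate-forming enzyme that macrophages induce after bacterial stimulation, was near the limit of detection in both groups. It had 4, 0 and 8 reads in control libraries 1, 3 and 4 and 6, 0 and 2 reads in the CXCL10 libraries. With 0 reads, the limit of 3 fragments or 6 reads allowed up to 0.158 CPM in control library 3 and 0.146 CPM in CXCL10 library 3. The limit covers counting error only. The highest level of ACOD1 was 0.239 CPM, in control library 4, or 0.222 CPM by library size alone, the scale of the limit. A difference at such low levels was not detectable at this depth.

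Control library 4 lay at the edge of the range for many of these genes. It was the highest of the 6 libraries for 11 members and the lowest for 7. This was not particular to it: CXCL10 library 1 was the highest for 10 and the lowest for 10. CXCL10 library 3 was the highest for 7 and the lowest for 12. Relative to the mean of all libraries on the log2 scale control library 4 lay at 0.53 for MPC2, 0.34 for MDH2 and 0.24 for PDHX, and at -1.47 for IDH3A, -0.83 for PDK2 and -0.55 for DLST. When this library was left out, 18 of 31 estimates changed sign or shrank by more than 1.5-fold. The same count was not made for the other libraries. Changes of sign alone numbered 4 without control library 4, and 2 and 3 without control libraries 1 and 3. They numbered 8, 5 and 3 without CXCL10 libraries 1, 3 and 4. The share of reads taken by all members together was 0.227% to 0.240% in every library. The part of the high ribosomal protein share and the low length slope of control library 4 in these values was not tested.

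**Figure D3:**
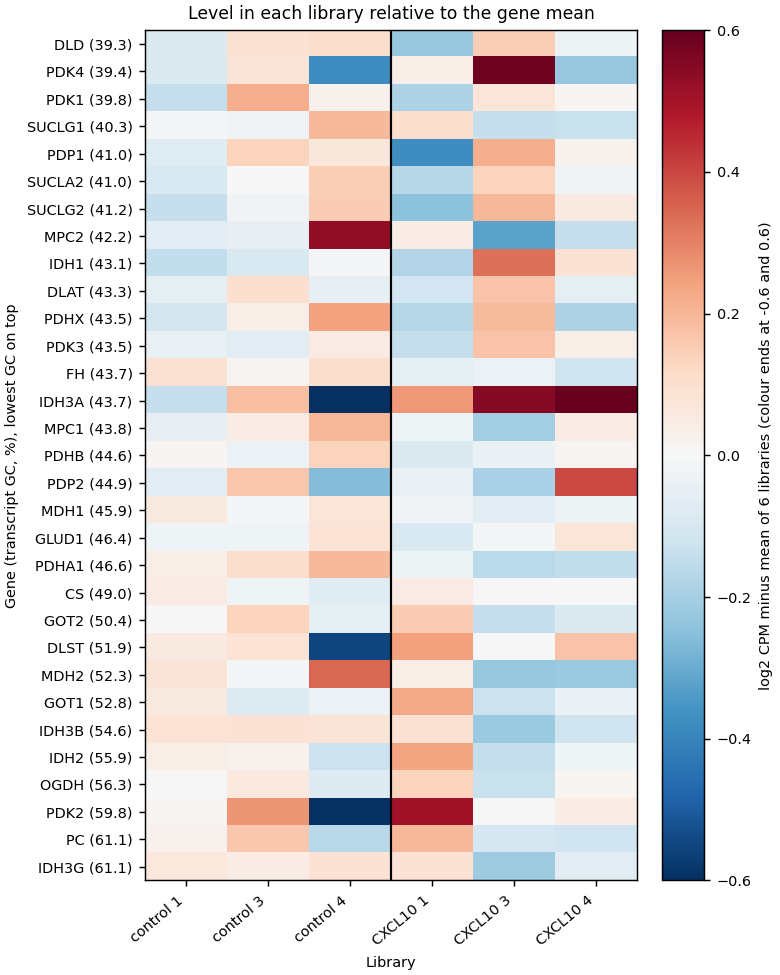
Deviation of each of the 31 tested genes from its mean over all 6 libraries (log2), as a heat map with genes in rows, ordered by transcript GC content, and libraries in columns. Colours end at a deviation of 0.6 in either direction. Control library 4 holds both the deepest negative value, -1.47 for IDH3A, and the deviation of 0.53 for MPC2.

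Promoter sequences are shown for 3 members that lay far from their mean in control library 4: IDH3A and DLST, low in it, and MDH2, high in it. They were chosen after their values were seen. PDK2, at -0.83, lay further below its mean than DLST, and MPC2, at 0.53, further above than MDH2. The promoters of PDK2 and MPC2 are not shown. The sequences are the 250 bases before the transcription start in RefSeq on GRCh38.p14, all on the plus strand, at chr15:78149112-78149361 for IDH3A, chr14:74881666-74881915 for DLST and chr7:76047856-76048105 for MDH2. The GENCODE genes begin upstream of these RefSeq starts, within the printed window for DLST and MDH2 and before it for IDH3A. Capitals mark matches on either strand to the GC box GGGCGG, the ETS motif CCGGAAGT and the NRF1 motif GCGCANGCG.
IDH3A: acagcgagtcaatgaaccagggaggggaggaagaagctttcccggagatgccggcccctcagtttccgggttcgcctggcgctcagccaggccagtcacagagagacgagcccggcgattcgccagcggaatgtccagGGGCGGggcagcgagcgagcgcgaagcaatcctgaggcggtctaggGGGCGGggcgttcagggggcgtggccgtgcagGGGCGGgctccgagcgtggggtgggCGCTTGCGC
DLST: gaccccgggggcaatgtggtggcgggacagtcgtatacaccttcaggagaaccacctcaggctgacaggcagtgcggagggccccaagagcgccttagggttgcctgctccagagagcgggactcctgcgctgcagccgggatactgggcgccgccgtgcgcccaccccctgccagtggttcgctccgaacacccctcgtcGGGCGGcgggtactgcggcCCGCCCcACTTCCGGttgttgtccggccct
MDH2: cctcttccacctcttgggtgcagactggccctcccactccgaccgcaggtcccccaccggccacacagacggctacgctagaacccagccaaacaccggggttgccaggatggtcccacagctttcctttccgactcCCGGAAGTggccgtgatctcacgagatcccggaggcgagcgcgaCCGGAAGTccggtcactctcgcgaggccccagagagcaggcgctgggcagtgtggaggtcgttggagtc

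The IDH3A window, with 70.0% GC, held 3 GC boxes and 1 NRF1 motif, and the DLST window, with 69.6% GC, held 2 GC boxes and 1 ETS motif. The MDH2 window, with 66.0% GC, held 2 ETS motifs and no GC box. Of the 32 members, 30 were matched to a promoter. Their median GC content was 65.8% beside 58.0% over all 27305 promoters of this length. A GC box was found in 19 of the 30 (63.3%) beside 42.3% of all promoters, an NRF1 motif in 5 (16.7%) beside 7% and an ETS motif in 3 (10%) beside 3.6%. The CCAAT box, searched as CCAAT on both strands, was in 16 (53.3%) beside 33%, and the ERR motif TCAAGGTCA in 0 beside 0.3%. A match is a description of the letters and not of binding.

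Within the CXCL10 group, libraries 1 and 3 differed along with the base composition of the transcripts. The transcript GC content of the members ran from 39.3% to 61.1%, with a median of 44.6%. CXCL10 library 1 was above CXCL10 library 3 in 10 of 10 members with at least 50% GC (median log2 difference 0.30) and in 7 of 21 members under 50% GC (median -0.26). Over all genes the same held for 78.4% of 7201 genes and 27.9% of 9194 genes. Spearman's rho between GC content and this difference was 0.77 over the 31 members and 0.56 over 16395 genes. A control library also varied with GC content. The rho of GC content with the deviation from the mean of all libraries was 0.73 over the members in control library 1. It was 0.69 in CXCL10 library 1 and -0.55 in CXCL10 library 3. Over all genes these values were 0.32, 0.46 and -0.48. These are correlations across genes, which share libraries and are not independent replicates.

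CXCL10 library 1 was the highest for 10 members and the lowest for 10, and CXCL10 library 3 the highest for 7 and the lowest for 12. The members that were high in library 1 included IDH2, PDK2 and PC, and those that were high in library 3 included IDH1, PDK4 and PDP1. Between groups, the log2 fold change had a rho of 0.05 with GC content over the members and -0.14 over all genes. With exon length the rho was 0.46 over the members and 0.32 over all genes. Genes with a longer total exon length thus tended to have higher estimates in both sets. The part of base composition and exon length in single estimates was not tested, beyond the fits with these trends removed. With the GC trend removed, 3 members had an unadjusted p under 0.05 (IDH3A, MDH2 and PDHA1) and 0 passed the adjusted threshold. With the length trend removed the estimate was 0.74 for IDH3A and -0.27 for MDH2.

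**Figure D4:**
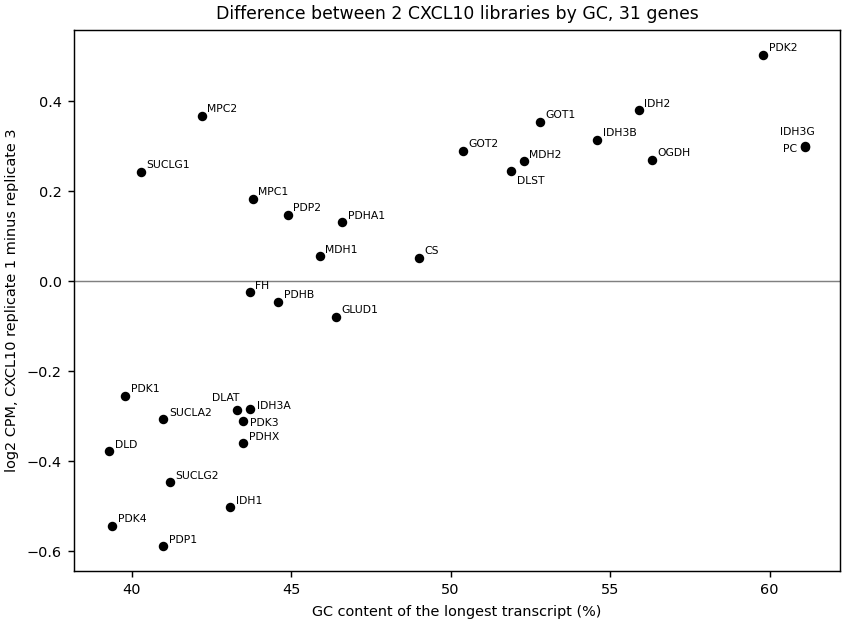
Difference between CXCL10 libraries 1 and 3 (log2) against the GC content of the transcript in percent, with 1 point for each of the 31 tested members. All 10 members with at least 50% GC lie above 0, as do 7 of the 21 others.

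The shares of isoenzymes, from reads per exon length, overlapped between the groups. Of the summed IDH1, IDH2 and IDH3A level, IDH2 made up 93.3% ± 0.379 in control and 92.2% ± 2.05 in CXCL10 libraries (SD, n = 3). IDH1 made up 5.94% ± 0.657 and 6.51% ± 1.79, and IDH3A 0.747% ± 0.348 and 1.29% ± 0.286. Each of these shares overlapped between the groups. IDH3A may be under-counted, as opposite-strand exons share 38.9% of its exon length and reads over several genes were left out. SUCLG2 held 79.2% ± 0.271 of the succinyl-CoA ligase beta subunit level in control and 79.7% ± 0.941 in CXCL10 libraries.

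Among the 4 kinases, PDK3 and PDK2 had the largest shares. The share of PDK2 may likewise be too low, as SAMD14 shares 38.6% of its exon length. In control libraries PDK3 took 39.9% ± 7.08 and PDK2 32.3% ± 8.08, and in CXCL10 libraries 36.4% ± 4.12 and 36.8% ± 7.09. The ratio of the summed kinase level to the summed phosphatase level was 0.666, 0.641 and 0.538 in control and 0.885, 0.662 and 0.611 in CXCL10 libraries. CXCL10 library 1 was the high one and the groups overlapped. MDH1 made up 44.1% ± 2.54 of the malate dehydrogenase level in control and 47.5% ± 2.28 in CXCL10 libraries, PDP1 82.5% ± 1.96 and 80.3% ± 4.54 of the phosphatases, and GOT1 16.3% ± 1.37 and 17.2% ± 0.327 of the aminotransferases. All 11 isoenzyme shares overlapped between the groups, and no test was made on them.

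**Figure D5:**
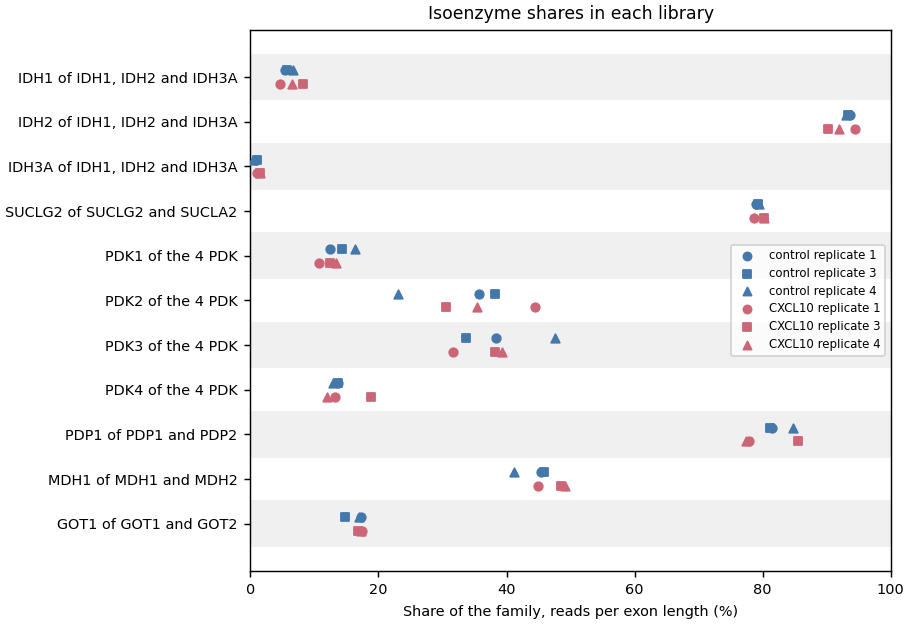
Share of each isoenzyme in its group, in percent of reads per exon length, with 1 point per library and the 2 groups in different colours. The control and CXCL10 points overlap in every share, and the PDK shares have the widest spread.

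The other genes of the pathway, in lists made up by function but with earlier results of these data known, also gave 0 calls by edgeR at an adjusted p under 0.05. Of the 13 tested genes for cycle steps not among the 32, 6 lay above 0 and 7 below, with a median of -0.05. The lowest p-values were those of SDHAF2, an assembly factor of succinate dehydrogenase (-0.59 ± 0.21, adjusted p = 0.683), and DHTKD1, an oxoadipate dehydrogenase (0.30 ± 0.17, adjusted p = 0.714).

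Of 15 tested genes of pyruvate, acetate and lactate supply, 8 lay above 0 and 7 below, with LDHB at -0.73 ± 0.24 (adjusted p = 0.683) and the monocarboxylate carrier SLC16A7 at 0.35 ± 0.21 (adjusted p = 0.743). LDHB encodes a lactate dehydrogenase subunit, and it was at 32.5 CPM in control library 4 against 12.2 to 17.8 CPM in the other libraries. In glycolysis 8 of 18 lay above 0, with a median of -0.01. The count was 4 without control library 4 or CXCL10 library 1 (medians -0.08 in both) and 12 without CXCL10 library 3 (median 0.06). The list was led by LDHB and by PFKP, a phosphofructokinase, at 0.30 ± 0.16. Lipoylation and complex upkeep had 7 of 15 above 0, led by MRPS36 (-0.25 ± 0.14) and the lipoyl carrier GCSH (-0.49 ± 0.36). Mitochondrial carriers had 4 of 10 above 0, led by SLC25A18 (-0.44 ± 0.24) and the oxoglutarate carrier SLC25A11 (-0.20 ± 0.15).

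All 10 tested genes of glutamine and glutamate supply had estimates above 0, with a median of 0.11 beside 0.02 over all genes, and 0 of them had an unadjusted p under 0.05. Glutamine synthetase, GLUL, gave 0.21 ± 0.14 (adjusted p = 0.764), with control library 4 lowest. Without that library, and likewise with the length trend removed, 7 of the 10 lay above 0, with medians of 0.09 and 0.10, and without CXCL10 library 3 only 6 did, with a median of 0.03. Among 8 tested genes of itaconate and 2-hydroxyglutarate handling, 4 lay above 0, with MMUT, the methylmalonyl-CoA mutase, at 0.35 ± 0.19. When 1 library was left out, the number above 0 ran from 3 to 6 of 13 for the cycle steps, 7 to 8 of 15 for pyruvate, acetate and lactate supply, 4 to 6 of 15 for lipoylation, 2 to 5 of 10 for carriers and 3 to 6 of 8 for itaconate handling.

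The nuclear genes of respiratory complexes I to V, which take up the electrons that the cycle releases, lay mostly below 0. Of 54 tested, 48 had estimates below 0 with a median of -0.39, and 31 had an unadjusted p under 0.05, all on the lower side (57.4%, beside 4.65% of all genes). The groups did not overlap, with control above CXCL10, for 22 of them (40.7%, beside 6.48% of all genes). Control library 4 was the highest of the 6 for 44 of the 54. Without it, 48 lay below 0, the median was -0.23, and 3 had an unadjusted p under 0.05. That count also depended on the treated libraries: it was 6 without CXCL10 library 3, 9 without library 4 and 40 without library 1. Over all genes the count was 649 of 17116 without control library 4. Without CXCL10 libraries 3, 4 and 1 in turn it was 626 of 16860, 649 of 17119 and 2103 of 17130. The median of the 54 genes was -0.30 with the length trend removed and -0.17 when control library 4 was left out as well. The lowest p-values were those of the ATP synthase subunits ATP5PO (-0.85 ± 0.25) and ATP5ME (-0.94 ± 0.29), both with an adjusted p of 0.683. ATP5PO was at 68.8 CPM in control library 4 against 31.4 and 31.2 CPM in control libraries 1 and 3 and 23.0 to 25.4 CPM in CXCL10 libraries. The median of the 31 tested members, -0.04, stood beside this -0.39, and the difference between the lists was not tested.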

How the data were processed

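Polyadenylated RNA of 3 control and 3 CXCL10 libraries was sequenced, and samples were grouped by the labelled treatment. The deposited files hold raw read counts per gene, which the authors obtained by running featureCounts 2.0.6 over GENCODE 30 exons, per the file headers. Trim Galore, STAR, Subread and build hg38 stand in the submitters' processing notes, without versions. Per the file headers, both mates were counted, no strand was set, and reads over several genes or places were left out.

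The 32 genes were read by name, and no gene name was repeated in the deposited counts. In those counts 150 names held exons on several chromosomes, but each of the 32 genes lay on a single one. These 32 genes and the pathway lists were chosen with earlier results of these data known. All 32 are named. From each other list the 2 genes of lowest p are named where none passed the test. Some genes that this rule would name are not reported here.

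Genes passing filterByExpr were tested with edgeR 4.0.16 (R 4.3.3, limma 3.58.1) by TMM scaling, a quasi-likelihood fit on the group over 6 libraries and Benjamini-Hochberg adjustment over all genes, with a threshold of 0.05. Standard errors were the fold change divided by the square root of F. CPM values of single genes used TMM-scaled totals of the tested genes, except where library size alone is named. Marker sums and the floor used library totals over all genes. TPM values and isoenzyme shares were computed here from reads and exon length. GC content came from the longest GENCODE 29 transcript, and promoters from RefSeq on GRCh38.p14. Library totals of 34.8 to 41.0 M reads set a floor of 6 reads, or 0.146 to 0.173 CPM. Alternatives were other scalings and filters, DESeq2 1.42.0, limma-voom, halved counts, a replicate block, removal of the length trend, and each library left out. Fits with the GC trend removed, with GC and length trends removed, with either trend removed and without control library 4, and the lists under these settings, were added after the data were seen.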

Additional observations from a re-analysis of the deposited data

How the results depend on the processing

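At an adjusted p under 0.05, 0 members and 0 genes were called in every setting run, DESeq2 and limma-voom included, except edgeR's fit with no filter on low counts, which called 137 genes, 1 of them a member (IDH3A). The members at an unadjusted p under 0.05 numbered 1 with all libraries, 3 with the GC trend removed and 3 with the GC and length trends removed, and from 0 (without CXCL10 replicate 3 or 4) to 3 (without CXCL10 replicate 1) when 1 library was left out. Over all genes the count was 1181 of 16531 with all libraries, 1495 with the GC trend removed and 1194 with both trends removed. It was 626 of 16860 without CXCL10 replicate 3, 649 of 17119 without CXCL10 replicate 4 and 2103 of 17130 without CXCL10 replicate 1. Library size alone gave 9 members below 0 and a median of 0.048, and leaving out 1 library gave medians from -0.060 to 0.019. Of the 31 members, 12 kept their sign in all 19 settings. When 1 library was left out, the estimates of these 12 ran from 0.05 to 0.29 for IDH1, -0.25 to -0.08 for IDH3B, -0.20 to -0.04 for IDH3G, 0.08 to 0.37 for DLST, -0.19 to -0.03 for SUCLG1, -0.15 to -0.12 for FH, -0.37 to -0.16 for MDH2, -0.27 to -0.18 for PDHA1, 0.06 to 0.56 for PDK2, 0.04 to 0.46 for PDK4, -0.40 to -0.07 for MPC2 and 0.46 to 1.16 for IDH3A. The other 19 changed sign at least once, and the largest of their reported estimates was 0.128 in size. For all these changes the cause was not tested. Depth limited ACOD1, which was not tested for lack of reads.

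The replicate numbers were shared by the groups, but same-numbered libraries did not deviate together (correlations 0.03, 0.02 and -0.05), so the numbers were not used as pairs. With the replicate block, 0 genes were called, 1 member had an unadjusted p under 0.05 beside 1323 of 16531 genes, and the members' median was -0.038.

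Estimates that changed sign were, with the length trend removed, CS -0.031, DLAT -0.029, MPC1 0.036, OGDH -0.026 and PDK3 -0.076. With the GC and length trends removed they were CS -0.025, DLAT -0.036, MPC1 0.038, OGDH -0.038 and PDK3 -0.076. Without control replicate 4 and with length corrected they were CS -0.037, DLAT -0.033, GLUD1 0.034, MPC1 0.046, OGDH -0.041, PDHX 0.0092, PDK3 -0.029 and PDP2 -0.050. With the GC trend removed they were DLAT -0.025, PC 0.021 and SUCLG2 -0.041. With the GC trend removed and without control replicate 4 they were DLAT -0.066, GLUD1 0.0028 and PDP2 -0.0067. DESeq2's size factors gave DLAT -0.0011 and DESeq2 itself -0.00019. Library size alone gave DLD 0.015, GLUD1 0.061, GOT2 0.030, MDH1 0.0025, PC 0.062, PDHB 0.0049, PDK1 0.011, PDP1 0.014 and SUCLA2 0.048.

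When 1 library was left out, estimates ran from -0.077 to 0.075 for DLAT, -0.16 to 0.022 for DLD, -0.062 to 0.021 for GLUD1, -0.066 to 0.13 for GOT1 and -0.14 to 0.028 for GOT2. They ran from -0.063 to 0.14 for IDH2, -0.056 to 0.087 for OGDH, -0.12 to 0.085 for PC, -0.16 to 0.045 for PDK1 and -0.021 to 0.13 for PDK3. They ran from -0.20 to 0.077 for PDP1, -0.077 to 0.25 for PDP2, -0.11 to 0.038 for SUCLA2 and -0.082 to 0.13 for SUCLG2. Without a change of sign they ran from 0.0085 to 0.07 for CS, -0.09 to -0.05 for MDH1, -0.18 to -0.05 for MPC1, -0.10 to -0.02 for PDHB and -0.23 to -0.0056 for PDHX.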
